A study of Mus musculus with 9 samples.

Results

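The translation factor genes are the protein-coding mouse genes whose symbols start with Eif or Eef and a number, the initiation factors and elongation factors of cytosolic protein synthesis, without the X-linked and Y-linked Eif2s3 copies. They were found by mapping the Ensembl identifiers of the count tables to gene symbols. Of 37620 identifiers, 68 matched, and 63 of these reached a level of at least 1 CPM (counts scaled to the size of the library) in at least 1 of 9 samples and were tested with 15069 genes in all. The other 5 were Eif4e1b and a second Eef2k identifier, both without a count, and Eif4ebp3, Eef1akmt3 and Eif4a3l1, whose highest CPM was 0.109, 0.457 and 0.0547.

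The samples hold ribosome-associated RNA of parvalbumin inhibitory neurons (PV INs) from hippocampal CA3/CA2. PV-Cre drove an HA-tagged ribosomal protein, Rpl22, in cells that express parvalbumin, so that ribosomes of these cells could be immunoprecipitated with their mRNA. All mice, including the controls, carried PV-Cre and the tagged Rpl22 and received a lentivirus in the dentate gyrus (DG) at 2 months of age, with a shRNA against Ablim3 in the shRNA group (4 samples) or a non-target shRNA in the shNT group (5 samples), and tissue was taken 2 weeks later. Each sample pooled 6 mice of both sexes, and Ablim3 was targeted in DG cells whose mossy fibers contact the PV INs, so the sequenced RNA gives no check of the knockdown.

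A cap-dependent translation cycle starts when eIF4E binds the cap of an mRNA and eIF4G joins it to the helicase eIF4A and, through eIF3, to the small ribosomal subunit that carries eIF2 and the initiator tRNA. eIF1 and eIF1A keep the subunit scanning until a start codon is found, eIF5 and eIF5B then let the large subunit join, and eEF1A and eEF2 drive elongation. In neurons the cycle is restrained at known points, by eIF4E-binding proteins, by kinases of the eIF2 alpha subunit and by eEF2 kinase, and eEF1A2 and eIF4A2 are the neuron-enriched copies of widely expressed genes.

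Libraries held between 18281719 and 34578837 counts on genes. In 3 of them, shNT replicate 2, shRNA replicate 1 and shRNA replicate 4, reads outside annotated exons made up 18.6%, 19.8% and 27.2% of the reads placed at a single position, and in the other 6 libraries they made up 9.76% to 12.5%. The summed CPM of 9 PV IN markers ran from 4774 to 7890 in shNT and from 2854 to 6953 in shRNA samples, and all 9 were detected, Pvalb included. The summed level of 6 pyramidal neuron markers was 527 to 1363 in shNT and 1411 to 1765 in shRNA samples, without overlap, and that of 7 astrocyte markers was 1015 to 1433 in shNT samples, 1329 to 1559 in shRNA replicates 1 to 3 and 5171 in replicate 4. Sample names fall into 2 sets, YTa31 (shNT and shRNA replicates 1 to 3) and YTa32 (shNT replicates 4 and 5, shRNA replicate 4), and the labels do not say what the sets are.

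CPM values below are scaled by edgeR's TMM factors, and levels of different genes are compared only as CPM per kb of exon. In shNT samples the 63 genes ran over a wide range, from 0.183 ± 0.0874 CPM per kb (SD, n = 5) for Eif4e3, an atypical cap-binding protein, to 290.0 ± 60.4 CPM per kb for Eif1b, a start codon scanning factor, with a median gene level of 28.7. After Eif1b came Eif5a (249 ± 46.0 CPM per kb), the hypusine-carrying factor that relieves stalled ribosomes, Eif1 (248 ± 45.6) and Eif4h (225 ± 28.6), which stimulates eIF4A. These 4 lay within the spread of their neighbours in the order. They were followed by Eef1a2 (167 ± 34.2 CPM per kb), Eif3g (131 ± 21.0), Eef2 (113 ± 13.2), Eef1e1 (111 ± 23.0), Eif4a2 (89.2 ± 13.9) and Eif3k (87.7 ± 18.5). The 10 highest genes made up 42.9% of the summed mean CPM of the 63 members, and 8 of them were also among the 10 highest in shRNA samples.

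By edgeR's quasi-likelihood test, no translation factor gene passed the study's threshold in either direction. That threshold is a false discovery rate (FDR, here Benjamini-Hochberg over all 15069 genes) under 0.05 with a 1.5-fold difference. The kind of edgeR test behind the study's own calls is unknown, and the count of members depended on it. With edgeR's likelihood ratio and exact tests, 2 members passed, Eef1e1 and Eif1ad, among 2230 and 2193 genes. With the quasi-likelihood test, used below unless another is named, 264 of all genes passed. Of all genes tested, 1.74% passed as higher in shRNA samples and 0.0133% as lower. At an unadjusted p under 0.05, 16 of the 63 members were lower in shRNA samples (25.4%), against 13.4% of all genes, and 3 were higher (4.76%), against 20.7% of all genes. The fitted difference was negative for 46 members and positive for 17, with a median log2 fold change of -0.20 beside 0.11 over all genes tested. All 9 PV IN markers were negative too (median log2 fold change -0.32, 1 of them, Pvalb, at an unadjusted p under 0.05). Positive values were found for all 6 pyramidal neuron (median 0.75), 4 DG granule cell (0.77), 7 astrocyte (1.34), 5 oligodendrocyte (0.77) and 5 endothelial markers (0.54), 4 of 6 microglia markers (0.49) and all 4 nuclear-retained noncoding RNAs (1.07), and the part of these in the members' values was not tested. For 7 members all 4 shRNA samples were below all 5 shNT samples (11.1%; 6.68% of all genes), and for 1 member they were above them (1.59%; 8.97% of all genes). Within the YTa31 samples alone, 39 of 63 members were negative, the median was -0.09, and 1 member was lower and 1 higher at an unadjusted p under 0.05, both below the shares of all genes in that set (3.43% and 6.88%). With reads outside exons as a term of the fit, the median was -0.0486, with 7 members lower and 7 higher at that p, and 10.6% of all genes were lower and 19.2% higher in that fit, so the share of lower members was near that of all genes. Other tools run on the same counts, edgeR's likelihood ratio and exact tests, DESeq2 and limma voom, called 1 to 4 members past the threshold, Eef1e1 in each case and all of them lower, where they called 2193 to 2919 of the 15069 genes. In bulk RNA of this kind, fewer tagged cells, less RNA per cell and a larger share of RNA from other cells cannot be told apart.

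**Figure D1:**
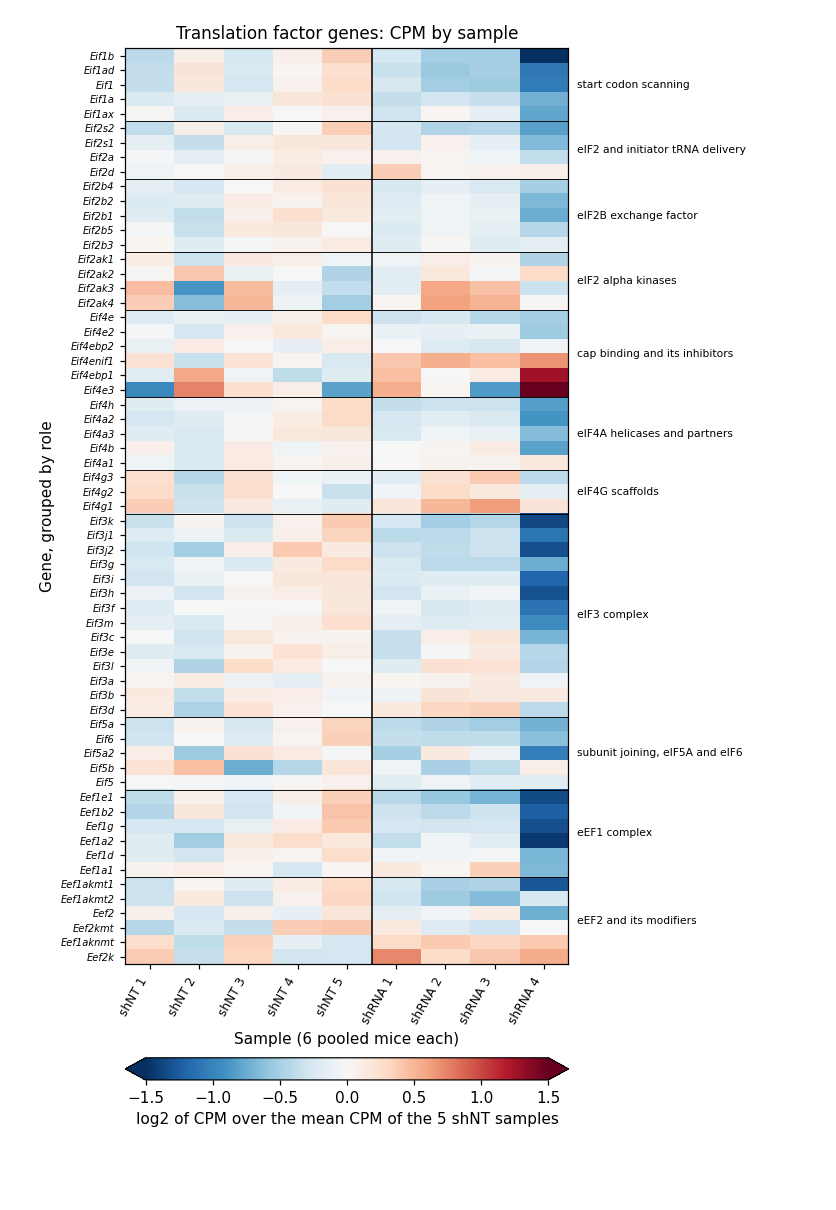
Heat map of the 63 translation factor genes, grouped by role (rows), in the 5 shNT and 4 shRNA samples (columns); color gives the log2 of CPM over the mean CPM of the 5 shNT samples. shRNA replicate 4 was the lowest sample for 41 of the 63 genes and shNT replicate 5 the highest for 31.

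The members together took 0.748%, 0.815%, 0.765%, 0.799% and 0.828% of the gene counts of shNT replicates 1 to 5. In shRNA replicates 1 to 4 they took 0.695%, 0.7101%, 0.690% and 0.633%. The groups did not overlap on this share of the raw counts, and replicate 4 was the lowest of the shRNA samples. On the TMM scale the summed CPM of the members did overlap. It was 7450 and 7374 in shRNA replicates 2 and 3, above 7365 in shNT replicate 2. The median member stood -0.17, -0.04, -0.13 and -0.64 from the shNT mean on the log2 scale in shRNA replicates 1 to 4, and between -0.18 and 0.16 in the shNT samples. Replicate 4 was also the library with the most reads outside exons, the highest astrocyte marker level and the lowest PV IN marker level, and the part of these in its low values was not tested. Without it the median log2 fold change was -0.14 and 14 members were lower at an unadjusted p under 0.05. In that fit the median of all genes was 0.03 and 11.3% of them were lower. Without all 3 libraries rich in reads outside exons, the median was -0.18 over the 62 members then tested, and 5 were lower at that p, a share below the 8.91% of all genes in that fit.

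The genes grouped as scanning factors were all lower in fitted level, here and under every alternative run. Of these 5, 4 had an unadjusted p under 0.05, Eif1ad included, and their median log2 fold change of -0.56 was the lowest of the role groups. Eif1ad was grouped by its symbol, and these data do not show that it acts in scanning. Eif1b measured 203, 282, 222, 281 and 343 CPM in the shNT samples and 221, 187, 187 and 86.9 CPM in the shRNA samples, and its log2 fold change was -0.64 ± 0.26 (SE; edgeR FDR = 0.113). Eif1, its close relative, had 405, 584, 438, 546 and 629 CPM in shNT and 441, 361, 361 and 252 CPM in shRNA samples. For both genes shRNA replicate 1 lay above the lowest shNT sample and replicate 4 was the lowest. Eif1a, whose product binds beside eIF1 in the decoding site, did not overlap, with 80.5, 85.2, 86.5, 106 and 109 CPM in shNT against 73.0, 76.7, 73.4 and 56.6 CPM in shRNA samples (log2 fold change -0.42 ± 0.15). Eif1ad (-0.59 ± 0.18) and the X-linked Eif1ax (-0.27 ± 0.17) overlapped, and Eif1ad had an FDR of 0.0693.

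Among the genes of eIF2, which brings the initiator tRNA, the beta subunit Eif2s2 had a log2 fold change of -0.47 ± 0.18 and the alpha subunit Eif2s1 one of -0.23 ± 0.17. The alternative initiator tRNA carriers Eif2a and Eif2d stood at -0.07 and 0.14. All 5 subunits of eIF2B, the exchange factor that reloads eIF2 with GTP, were negative within a narrow range of -0.27 (Eif2b4) to -0.12 (Eif2b3), and none had an unadjusted p under 0.05. In YTa31 samples alone, or with reads outside exons as a term of the fit, 4 of the 5 were negative.

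The 4 kinases that phosphorylate eIF2 alpha showed no common direction, with 1 negative and 3 positive values, and all 4 negative once exon length entered the fit. Eif2ak1, the heme-regulated kinase, was the most abundant of them at 18.04 ± 2.26 CPM per kb in shNT and 17.1 ± 2.74 in shRNA samples. Eif2ak3, which encodes the endoplasmic reticulum stress kinase PERK, measured 36.8, 14.4, 37.0, 24.2 and 20.6 CPM in shNT and 23.9, 39.8, 36.1 and 21.3 CPM in shRNA samples. Eif2ak4, the amino acid sensor GCN2, had 31.5, 15.7, 34.6, 23.2 and 17.0 CPM in shNT against 25.0, 37.2, 35.1 and 24.6 CPM in shRNA samples. Both varied more within the shNT group, where replicate 2 was lowest, than between groups. The double-stranded RNA kinase PKR, Eif2ak2, was low throughout, at 1.37 ± 0.293 and 1.44 ± 0.201 CPM per kb. Log2 fold changes of the 4 kinases ran from -0.08 to 0.32, and edgeR FDR values from 0.376 to 0.812.

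In the cap-binding group the members went in opposite directions. Eif4e, the cap-binding subunit itself, was lower in every shRNA sample, with 143, 153, 150.1, 173 and 199 CPM in shNT and 132, 138, 122 and 116 CPM in shRNA samples. Its log2 fold change was -0.37 ± 0.14 (edgeR FDR = 0.102). Eif4enif1 encodes 4E-T, the eIF4E partner that carries it into the nucleus and to P-bodies, where mRNAs are held untranslated. It was the only member with every shRNA sample above every shNT sample, at 37.4, 25.5, 37.1, 33.1 and 27.5 CPM in shNT against 42.4, 46.8, 43.9 and 51.5 CPM in shRNA samples. The log2 fold change was 0.52 ± 0.15, and its edgeR FDR of 0.0651 was the smallest among the 63 members. By exact two-sided permutation, unadjusted for the 63 members, p was 0.00794 for Eif4enif1, Eif4h and Eif3j1. That is the smallest p that 5 against 4 samples allow. For Eef1e1, Eif5a, Eif6, Eif1a and Eif4e, which did not overlap either, p was 0.0159 by the same test. All of these members were picked for their absence of overlap, which already makes p small, so the test adds no separate support.

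Of the eIF4E-binding proteins, Eif4ebp2, the form that prevails in brain, measured 7.50, 8.86, 8.10, 7.47 and 8.69 CPM in shNT and 8.08, 7.11, 6.86 and 7.85 CPM in shRNA samples, with overlap. Eif4ebp1 lay near the CPM minimum, between 0.706 and 1.38 CPM in shNT and at 1.26, 0.924, 1.00 and 2.21 CPM in shRNA samples. Eif4e3 was the lowest member on the per-kb scale, and its positive log2 fold change of 1.03 ± 0.60 rested on 5.32 CPM in shRNA replicate 4, beside 0.580 to 1.53 CPM in the other 3. Without that sample it was 0.03.

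The helicase group was led by Eif4h and Eif4a2. Eif4h had 482, 513, 513, 560.5 and 659.6 CPM in the shNT samples and 427, 438, 437 and 309 CPM in the shRNA samples, so that the groups did not overlap (log2 fold change -0.44 ± 0.17). Eif4a2 measured 399, 419, 467, 514 and 583 CPM in shNT and 402, 427, 409.9 and 255 CPM in shRNA samples, an overlap by 3 shRNA samples. Eif4a1, the copy known from dividing cells, ran from 127 to 159 CPM in shNT and from 147 to 163 CPM in shRNA samples, and it was one of the few members highest in shRNA replicate 4. Reads from exons that Eif4a2 shares with snoRNA genes and Rfc4 (13.2% of its exon length) cannot be assigned to it in these counts, which take no strand.

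The 3 eIF4G scaffolds, which hold the cap complex together, were all positive, under every scaling run, but 2 of the 3 turned negative with the exon length offset or when any 1 of 4 samples (replicates 2 and 5 of shNT, replicates 2 and 3 of shRNA) was left out. Eif4g1 measured 224, 141, 191, 161 and 154 CPM in shNT and 198, 246, 269 and 199.7 CPM in shRNA samples, a log2 fold change of 0.39 ± 0.17 and an edgeR FDR of 0.142. Only shNT replicate 1 reached into the range of the shRNA samples. Eif4g3 (0.05 ± 0.20) and Eif4g2 (0.07 ± 0.19), the cap-independent relative, overlapped between groups.

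eIF3, the largest initiation factor, had 14 tested genes, of which 11 were negative and 3 positive, with a median log2 fold change of -0.33. At an unadjusted p under 0.05, Eif3k (-0.58 ± 0.23), Eif3j1 (-0.52 ± 0.19) and Eif3g (-0.43 ± 0.16) were lower and none was higher. Eif3j1, the loosely bound subunit, had 28.0, 30.0, 27.6, 33.8 and 40.4 CPM in shNT against 24.1, 24.4, 25.6 and 15.02 CPM in shRNA samples, without overlap. Its exons overlap those of Spg11 over 19.0% of their length. Eif3g, which contacts mRNA during scanning, measured 120.4, 137, 121, 155 and 173 CPM in shNT and 121, 107, 108 and 84.1 CPM in shRNA samples, where replicate 1 lay just above the lowest shNT sample. Eif3k ran from 74.7 to 123 CPM in shNT and from 36.9 to 78.8 CPM in shRNA samples. The large subunits Eif3a, Eif3b and Eif3c stood at 0.04 ± 0.12, 0.10 ± 0.14 and -0.15 ± 0.19. The others, Eif3e, Eif3f, Eif3h, Eif3i, Eif3l, Eif3m and the weakly measured Eif3j2, ranged from -0.52 (Eif3j2) to -0.02 (Eif3l), each with overlap. Eif3d was at 0.13, but 32.7% of its exon length overlaps another annotated gene.

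In the late steps of initiation, Eif5a had 473, 614, 503, 619 and 748 CPM in shNT and 451, 432, 411 and 363 CPM in shRNA samples. Eif6, which keeps free large subunits from joining too early, had 74.4, 92.1, 80.3, 94.7 and 118 CPM in shNT and 71.8, 70.3, 70.7 and 59.7 CPM in shRNA samples. Neither overlapped, with log2 fold changes of -0.51 ± 0.18 and -0.43 ± 0.15 and edgeR FDR values of 0.0806 and 0.0863. Eif5, the GTPase activator of eIF2, was among the steadiest members, at 74.7 ± 2.36 and 68.0 ± 2.77 CPM per kb. Eif5b was among the most variable within shNT, from 54.8 to 125 CPM.

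**Figure D2:**
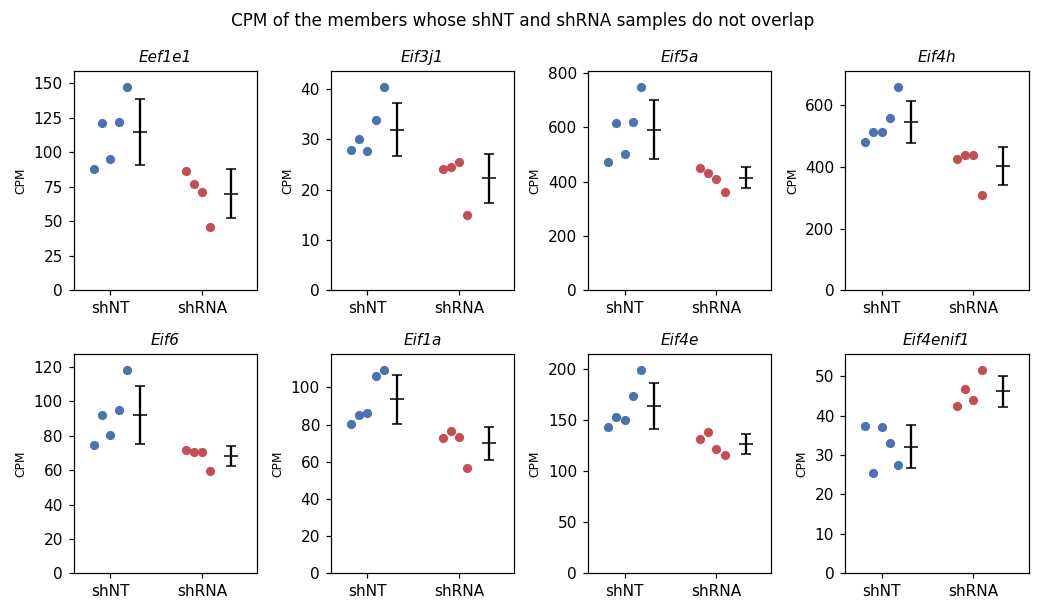
CPM of the 8 translation factor genes whose shNT (blue) and shRNA (red) samples do not overlap, 1 point per sample in replicate order from left to right, with the mean ± SD in black and each axis starting at 0. Eif4enif1 is the only one higher in shRNA samples, and shRNA replicate 4 is the extreme sample in each of the 8 genes.

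Genes of the eEF1 complex were negative in 5 of 6 cases. Eef1e1, a small eEF1-related protein that serves as a scaffold of the tRNA synthetase complex, had the lowest log2 fold change of all members, -0.71 ± 0.21 (edgeR FDR = 0.0661). It measured 87.8, 121, 95.3, 122 and 147 CPM in shNT and 86.2, 77.2, 71.0 and 45.4 CPM in shRNA samples. Highest of the shRNA samples, replicate 1 lay just below the lowest shNT sample. Eef1a2, the neuronal eEF1A, was 308, 243, 384, 418 and 388 CPM in shNT against 270.0, 332, 309.6 and 129 CPM in shRNA samples, with overlap. Eef1a1 had 188, 195, 186, 152 and 184 CPM in shNT and 200.1, 186, 232 and 114 CPM in shRNA samples, and its log2 fold change of 0.02 ± 0.19 took both signs over the alternatives. Reads of Eef1a1 may also be lost to its processed pseudogenes. The nucleotide exchange subunits Eef1b2 (-0.51 ± 0.23), Eef1g (-0.47 ± 0.23) and Eef1d (-0.17 ± 0.17) all overlapped between groups.

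Eef2, the translocase, was 369, 294, 368, 322 and 396 CPM in shNT and 319, 340.1, 377 and 211 CPM in shRNA samples, a log2 fold change of -0.17 ± 0.19. Its kinase Eef2k, which inhibits it by phosphorylation, measured 16.7, 10.1, 15.9, 10.54 and 10.7 CPM in shNT and 21.04, 15.4, 17.0 and 18.8 CPM in shRNA samples. Only shRNA replicate 2 overlapped the shNT range, and the log2 fold change was 0.50 ± 0.20 (edgeR FDR = 0.106). Over 26.3% of its exon length, Eef2k shares annotation with other identifiers. The methyltransferases that act on eEF1A were split, with Eef1akmt1 at -0.57 ± 0.21, Eef1akmt2 at -0.42 ± 0.17 and Eef1aknmt at 0.35 ± 0.18.

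**Figure D3:**
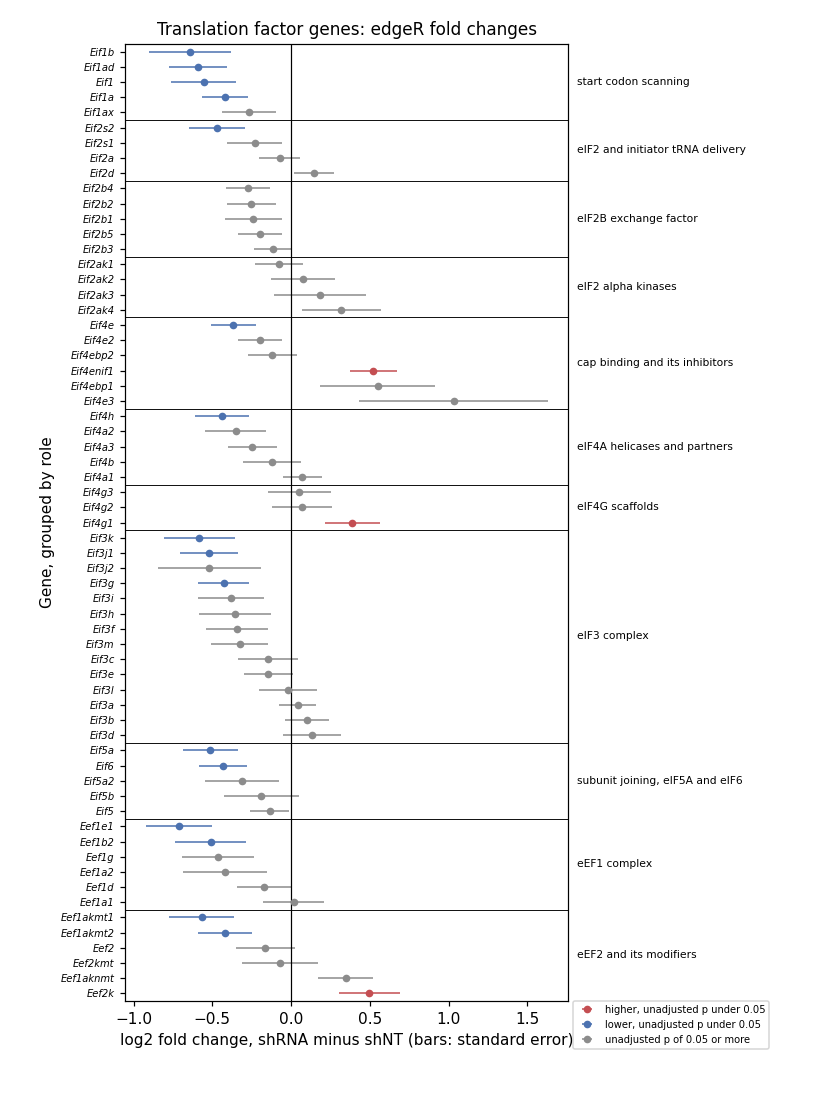
Log2 fold change (shRNA minus shNT, edgeR) with its standard error for the 63 translation factor genes, grouped by role; blue and red mark an unadjusted p under 0.05. The 5 genes grouped as scanning factors and 5 eIF2B subunits are all left of 0. The 3 eIF4G scaffolds are all right of it (2 of them turn negative with an exon length offset). None of these genes passed FDR under 0.05 by the quasi-likelihood test.

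Several factors exist as pairs of related genes, and the share of 1 gene in its pair does not depend on the level of the rest of the library. By CPM per kb, Eif4a2 made up 69.9%, 72.8%, 70.4%, 73.5% and 75.4% of Eif4a1 and Eif4a2 in the shNT samples and 68.9%, 69.5%, 68.8% and 55.9% in the shRNA samples. The groups did not overlap (72.4% ± 2.26, SD, n = 5, against 65.8% ± 6.57, n = 4; exact two-sided permutation test, p = 0.00794, adjusted p = 0.0198 by Benjamini-Hochberg over the 5 pairs compared). Eif4g3 made up 39.2%, 39.1%, 42.8%, 42.0% and 42.5% of Eif4g1 and Eif4g3 in shNT against 35.7%, 36.8%, 37.2% and 31.8% in shRNA samples, again without overlap (41.1% ± 1.82 against 35.4% ± 2.47; exact test, p = 0.00794, adjusted p = 0.0198). Both p-values are the smallest that 5 against 4 samples allow. Without shRNA replicate 4 the differences were -3.36 and -4.58 percentage points, with an adjusted p of 0.0893 for each by the exact permutation test.

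The remaining pairs did not separate the groups. Eef1a2 made up 69.1% ± 6.34 of the eEF1A pair in shNT and 62.2% ± 4.38 in shRNA samples (exact permutation test, adjusted p = 0.172). Eif1b was 53.8% ± 1.10 of its pair with Eif1 in shNT and 51.5% ± 4.95 in shRNA samples, where replicates 1 to 3 lay at 53.4% to 54.2% and replicate 4 at 44.1%. Eif5a2 was a minor part beside Eif5a, at 9.30% ± 2.67 and 10.1% ± 2.68. In these last 2 pairs the adjusted p was 0.526 and 0.595 by the exact permutation test, and the sign of the difference turned when 1 shRNA sample was left out.

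**Figure D4:**
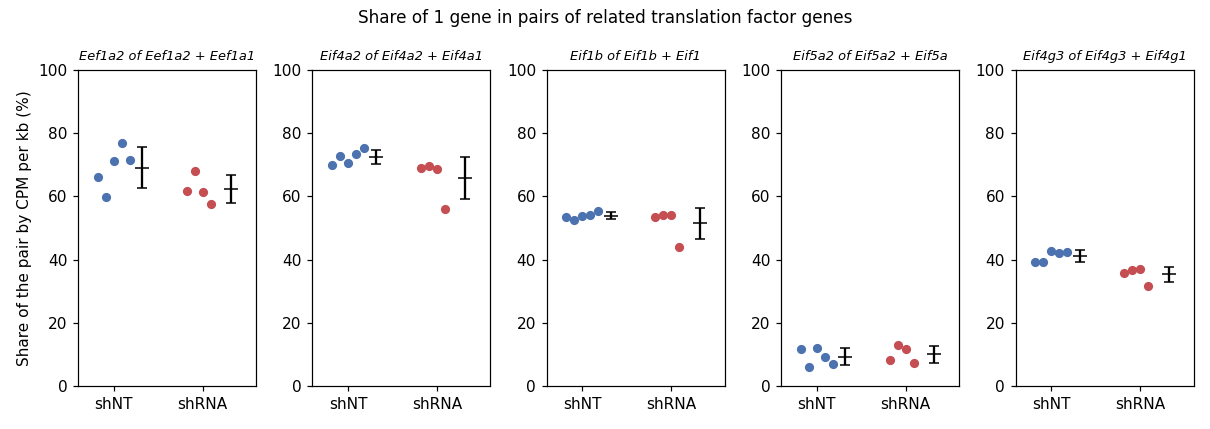
Share of 1 gene in each of 5 pairs of related genes, by CPM per kb (percent, axis from 0 to 100), 1 point per sample (shNT blue, shRNA red) with mean ± SD in black. Eif4a2 and Eif4g3 shares are lower in all 4 shRNA samples than in all 5 shNT samples, and shRNA replicate 4 lies lowest for Eef1a2, Eif4a2, Eif1b, Eif4g3 and Eif5a2 among the shRNA samples.

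Fold changes of the members went with the exon length of the genes, as they did in the whole table. Spearman's rho between exon length and log2 fold change was 0.526 over the 63 members and 0.406 over 15047 genes with a length, a description across genes, which share their libraries and are not independent. Of 33 members with under 3 kb of exon, 29 were negative, with a median of -0.37 beside -0.17 for all genes of that length. Of 17 members of 3 to 6 kb, 12 were negative, with a median of -0.17 beside 0.16. Of 13 members of 6 kb or more, 5 were negative, with a median of 0.07 beside 0.44. Medians of the members thus lay below those of all genes in each class. With exon length as an offset in the fit, 52 members were negative, 18 were lower at an unadjusted p under 0.05 and 1 was higher, where 14.1% of all genes were lower and 14.5% higher.

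**Figure D5:**
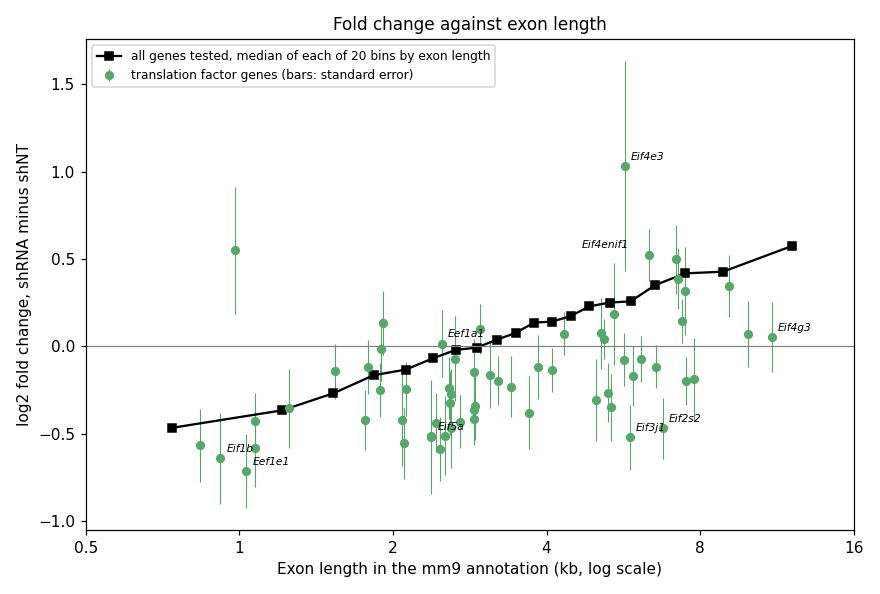
Log2 fold change (shRNA minus shNT) with its standard error against exon length in kb (log scale) for the 63 translation factor genes (green) and the median of all genes tested in 20 bins of exon length (black). Most members lie below the black line, and Eif4enif1, Eif4ebp1 and Eif4e3 are among those above it.

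Level per kb and exon length went together too, which is in part built in, since level per kb is CPM divided by exon length. Among the 21 members with the highest level per kb in shNT, 17 were negative (median log2 fold change -0.37, median exon length 2.49 kb), among the middle 21 also 17 (-0.24, 2.60 kb), and among the lowest 21 there were 12 (-0.07, 5.90 kb).

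Other genes around the cycle were read from lists of textbook members. mRNAs known to start with an oligopyrimidine tract (TOP mRNAs) made up 11 of the members, of which 9 were negative and 1, Eef1b2, had an unadjusted p under 0.05, with a median of -0.17 beside -0.22 for the 52 other members. Of 18 translation genes outside the rule, 1, Cyfip1, passed the threshold as higher, beside 1.74% of all genes tested. Cyfip1 encodes an eIF4E-binding partner of FMRP. Its level was 35.3 ± 10.4 CPM in shNT and 81.4 ± 25.5 in shRNA samples (log2 fold change 1.20 ± 0.25, edgeR FDR = 0.0424). Cyfip1 has 8.93 kb of exon and was highest in shRNA replicate 4, at 118 CPM beside 62.5 to 80.3 in the other shRNA samples. With an exon length offset, or with reads outside exons as a term of the fit, 0 genes passed the threshold. Of all genes tested, 13.4% were lower and 20.7% higher at an unadjusted p under 0.05, for this list and those below. In this list 5 genes were lower at that p. They were Paip1 and Paip2, which bind poly(A)-binding protein, Denr and Mcts1, which together recycle ribosomal subunits, and Dohh, which makes hypusine on eIF5A, at log2 fold changes of -0.59 to -0.43. Of 11 genes of mTORC1 and MNK signalling, Mtor (0.76 ± 0.28), Tsc1, Tsc2 and Rps6kb2 were higher at an unadjusted p under 0.05. Rheb (-0.52 ± 0.18) and Rps6 were lower at that p, and none passed the threshold. Rps6kb2 was highest in the 3 libraries rich in reads outside exons. It had 32.5 CPM in shNT replicate 2, 37.4 and 79.0 CPM in shRNA replicates 1 and 4, and at most 18.6 CPM elsewhere. Mtor, Tsc1 and Tsc2 have 10.1, 11.8 and 6.35 kb of exon, Rheb 5.54 kb and Rps6 1.59 kb. Over all genes the median log2 fold change was 0.44 at 6 kb or more and -0.17 under 3 kb. The part of exon length and of reads outside exons in these values was not tested. Of 8 targets and phosphatase subunits of the integrated stress response, which eIF2 alpha kinases trigger, Atf4 (-0.58 ± 0.24), Ddit3 (-0.68 ± 0.19) and Chac1 (-0.54 ± 0.21) were lower at an unadjusted p under 0.05, none was higher, and none passed the threshold. Atf4, Ddit3 and Chac1 each overlapped between groups. They have 1.72, 1.71 and 1.64 kb of exon, and the part of exon length in their values was not tested.

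Promoter sequence was read for members from RefSeq windows of the mouse build GRCm38.p6, from 250 bases before to 50 after each start, for 50 of the 63 members and 65 windows. The ETS core CCGGAAG, on either strand, was in 30.8% of these windows and in 8.86% of all 32851 windows, and the E-box CACGTG in 23.1% against 7.15%. The 32851 windows were not limited to the genes tested, so members were not compared with other expressed genes. GC boxes (GGGCGG) were in 69.2% against 35.7%, and the TATA letters TATAAA in 6.15% against 13.6%. None of these letter strings contains another. Of the 13 matched members that were lower at an unadjusted p under 0.05, 5 held an ETS core, 5 an E-box, 7 a GC box and none TATAAA, beside 17, 13, 37 and 4 of all 50 matched members. The stretches below are the 100 bases before the start of 5 genes, chosen to show an E-box gene at the top of the level order (Eif1b), an E-box gene without overlap between groups (Eif4h), the member with the lowest fold change (Eef1e1), an eIF3 subunit with an ETS core (Eif3g) and a scaffold that was higher (Eif4g1). Capitals mark the 4 kinds of motif on either strand.
Eif1b, chr9:120492506-120492605, plus strand: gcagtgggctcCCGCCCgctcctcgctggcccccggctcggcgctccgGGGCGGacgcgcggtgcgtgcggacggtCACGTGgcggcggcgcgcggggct
Eif4h, chr5:134639410-134639509, minus strand: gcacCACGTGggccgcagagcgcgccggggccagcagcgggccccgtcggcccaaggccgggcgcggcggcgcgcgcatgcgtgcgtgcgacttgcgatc
Eef1e1, chr13:38659029-38659128, minus strand: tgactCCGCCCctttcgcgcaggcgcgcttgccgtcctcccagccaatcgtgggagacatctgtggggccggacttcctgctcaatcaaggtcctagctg
Eif3g, chr9:20898591-20898690, minus strand: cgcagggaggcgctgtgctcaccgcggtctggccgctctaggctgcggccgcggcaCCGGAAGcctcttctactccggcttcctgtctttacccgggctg
Eif4g1, chr16:20672627-20672726, plus strand: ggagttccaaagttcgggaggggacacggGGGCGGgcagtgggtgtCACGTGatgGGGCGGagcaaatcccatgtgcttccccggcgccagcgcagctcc

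Counts are over all annotated exons of each gene. In mm9, the build of the count tables, Eif4e lies at chr3:138189155-138220563 (plus strand), Eif4enif1 at chr11:3102395-3144591 (plus strand), Eif4h at chr5:135095747-135115218 (minus strand) and Eif5a at chr11:69730216-69735460 (minus strand). Eif3j1 lies at chr2:121854282-121882334 (plus strand), Eif6 at chr2:155645568-155652661 (minus strand) and Eef1e1 at chr13:38737567-38750897 (minus strand).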

How the data were processed

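Ribosome-associated RNA was measured in 5 shNT and 4 shRNA samples, grouped by the GEO titles. Libraries were made with the SMARTer v4 kit and sequenced as 50-base reads. The authors aligned reads with STAR and deposited raw counts per gene (HTSeq version 0.6.0, unstranded, mm9), so overlapping genes and near-identical copies are uncertain. The submitters' processing notes name the tools and build.

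Identifiers were named through the mm9 annotation (GENCODE vM1) and current RefSeq symbols. Older symbols, under which the Argonaute genes are called Eif2c and match the rule, were an alternative. Genes that reached 1 CPM in 1 sample or more (15069) were tested with edgeR 4.0.16 (R 4.3.3; quasi-likelihood, TMM, condition as the only term) and Benjamini-Hochberg adjustment. The code was tested on simulated data. Pairs were compared by two-sided exact permutation tests. The text names the 10 members highest per kb, those without overlap, the paralog pairs and the regulators (eIF2 alpha kinases, Eef2k, eIF4E-binding proteins), with other members by role in ranges and examples chosen after values were seen. Alternatives were DESeq2 1.42.0, limma 3.58.1, other scalings, filters, blocks, an exon length offset, a covariate and samples left out. Members, lists and motifs were chosen with earlier results of these data known. No authors' comparison tables were used.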

Additional observations from a re-analysis of the deposited data

Results flagged for a closer look

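In 9 of 68 groups of values tested for a single far sample (the named genes, the pair shares and the library measures in each group), 1 sample stood apart by Dixon's criterion, where chance gives about 1 group in 20, or 3.4. Of these, 6 were shRNA replicate 4. It measured 15.02 CPM for Eif3j1 (24.1 to 25.6 in the other shRNA samples), 255 CPM for Eif4a2 (402 to 427), 309 CPM for Eif4h (427 to 438) and 59.7 CPM for Eif6 (70.3 to 71.8), and its pair shares were 55.9% for Eif4a2 (68.8% to 69.5%) and 44.1% for Eif1b (53.4% to 54.2%). In shNT replicate 2, Eif4ebp1 measured 1.38 CPM (0.706 to 0.892 in the other shNT samples) and 18.6% of reads lay outside exons (9.76% to 11.3%). In shNT replicate 4, Eef1a1 measured 152 CPM (184 to 195). The cause of these values was not tested.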

How the results depend on the processing

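The count of 0 members past FDR under 0.05 and 1.5-fold became 2 with edgeR's likelihood ratio test and its exact test (Eef1e1 and Eif1ad), 4 with DESeq2, 1 with limma voom and 2 at FDR under 0.1. Leaving out 1 sample gave 0 to 2, the 2 without shNT replicate 1, where 1417 of all genes passed. The 3 members higher at an unadjusted p under 0.05 became 9 with limma voom, 1 in YTa31 samples or with the exon length offset, 7 with a covariate for reads outside exons and 6 under older symbols, and 1 to 4 without 1 sample, 1 when shNT replicate 2, 4 or 5 or shRNA replicate 1 or 3 was out. The 16 lower members became 1 in YTa31 samples, 7 with the covariate and 5 without the 3 libraries rich in reads outside exons, and 14 to 17 without 1 sample. Of all genes, 28% were higher with limma voom, 6.88% in YTa31 samples, 14.5% with the length offset and 19.2% with the covariate. Lower were 3.43% in YTa31 samples, 10.6% with the covariate and 8.91% without the 3 libraries. Without 1 sample, 11.7% to 22.7% of all genes were higher and 11.3% to 15% lower. Leaving out those libraries and using older symbols were choices made after the files were seen. Over all genes, 264 passed the threshold, against 0 with library size only, upper quartile scaling, the length offset or the covariate, 29 with the block and 2919 with limma voom. The median of -0.20 became -0.0486 with the covariate and -0.34 (without shRNA replicate 3) to -0.14 (without shRNA replicate 4) when 1 sample was out. Same-numbered samples did not deviate together (4 correlations from -0.641 to 0.486, 1 shRNA sample closest to its own number). The labels do not say what the numbers mean, and 4 correlations cannot settle whether samples were paired. A replicate block gave 1 higher and 1 lower member, where 10.2% of all genes were higher and 2.24% lower. With the length offset added, the block gave 0 and 2, where 6.26% of all genes were higher and 2.33% lower.

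Pair share differences kept their sign for Eif4a2 (-7.88 to -3.36 percentage points) and Eif4g3 (-6.38 to -4.58) when 1 sample was out, but lost their call without any 1 shNT sample or shRNA replicate 4. By the exact permutation test the adjusted p was 0.0714 without a shNT sample, from the smallest p that 4 against 4 samples allow (0.0286), and 0.0893 without shRNA replicate 4, while without shRNA replicate 1, 2 or 3 the call held at 0.0446. Those of Eef1a2 ran from -9.19 to -4.99, of Eif1b from -3.27 to 0.109 and of Eif5a2 from -0.0997 to 1.78.

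Of 27 named genes, 11 changed sign under at least 1 alternative. Eef1a1 became -0.0305 with DESeq2 and with its size factors, -0.0232 without the CPM filter, -0.0182 with the block and -0.0814 with the name set as block. With the covariate Eef1a2 became 0.0042, Eef2 0.0736, Eif2ak1 0.142, Eif2ak2 -0.0587 and Eif5a2 0.0890. With limma voom Eef2 became 0.0550 and Eif2ak1 0.000144, and in YTa31 samples Eif2ak1 0.0075 and Eif2ak2 -0.16. The length offset, alone and with the block, gave Eif2ak2 -0.17 and -0.21, Eif2ak3 -0.0249 and -0.0698, Eif2ak4 -0.0056 and -0.0677, Eif4a1 -0.10 and -0.0474, Eif4ebp2 0.0389 and 0.0393, and Eif4g3 -0.41 and -0.40. Eif2ak2 was -0.0193 with the block, Eif4g3 -0.0059 with the name set as block and Eif4a1 -0.0239 without the 3 libraries. Without 1 sample, Eef1a1 ran from -0.19 to 0.16, Eif2ak1 from -0.20 to 0.0174, Eif2ak2 from -0.11 to 0.20, Eif4a1 from -0.0064 to 0.0752 and Eif4g3 from -0.15 to 0.16. The cause was not tested.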

Other observations

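Under the older mm9 symbols the rule also takes in the 4 Argonaute genes, which load small RNAs and are no initiation factors, while the eEF1A and eEF2 methyltransferases drop out. Argonaute levels were higher in shRNA samples in fitted value, from 13.9 to 16.2 CPM in the mean for Ago1 and from 34.8 to 43.7 CPM for Ago2, with log2 fold changes of 0.22 and 0.33. Ago3 stood at 18.9 and 28.1 CPM (0.58) and Ago4 at 5.66 and 10.2 CPM (0.86), Ago4 with every shRNA sample above every shNT sample. FDR values of the 4 genes were 0.0630 to 0.484 (edgeR, Benjamini-Hochberg), so none passed the threshold.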
